A study of Homo sapiens with 20 samples.

Results

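The desmosome genes described here are 9 of the 60271 genes in the deposited RNA sequencing data of MDA-MB-468 cells. They are the desmosomal cadherins DSG2, DSG3, DSC2 and DSC3, the plakin DSP, and the armadillo proteins JUP, PKP1, PKP2 and PKP3. The list was chosen by gene name with the CPM (counts scaled to library size) of all 5 groups already in view. The levels of the 9 genes and their differences between groups are therefore given as a description, with no p value, and the counts of genes past the threshold support nothing by themselves.

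MDA-MB-468 is an epithelial, triple-negative breast cancer cell line that carries extra copies of the EGF receptor gene. All cells were seeded together, cultured and then starved of serum, which the protocol gives as 24 h before EGF. They were left untreated as the control or were given 50 ng/mL EGF (epidermal growth factor) for 12, 24, 48 or 72 h, a treatment that the study used to start epithelial-mesenchymal transition (EMT), and all groups were harvested together. With shared seeding and harvest, 24 h without serum before EGF cannot hold for every EGF time. The time in culture before EGF then differs between groups and cannot be told apart from the time of EGF. Each of the 5 groups had 4 biological replicates, so that 20 libraries were compared, and every EGF group was set against the same 4 control libraries. Whether the replicates came from separate cultures is not stated beyond that label, and all come from 1 cell line, so p values measure only the spread between these samples, which may be technical.

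Desmosomes are the button-like junctions that anchor the keratin filaments of neighboring epithelial cells to each other. Desmogleins (DSG) and desmocollins (DSC) are transmembrane cadherins that bind those of the next cell. Inside the cell their tails hold plakoglobin (JUP) and the plakophilins (PKP), and desmoplakin (DSP) links these to keratin. Simple epithelia use mainly DSG2, DSC2 and PKP2, whereas DSG1, DSG3, DSC1, DSC3 and PKP1 are known from stratified epithelia such as the skin. Loss of desmosomes is a textbook feature of EMT.

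Markers of cell type were looked at first. Such markers do not identify a cell line, and the study states that the cells were not authenticated after delivery. EPCAM (181 ± 11.4 CPM in the control, SD, n = 4), CDH1 (127 ± 16.5 CPM) and KRT18 (788 ± 84.4 CPM) were abundant, PGR had 0 counts in all libraries, and ESR1 and ERBB2 stood at 5.03 ± 1.06 and 21.5 ± 2.96 CPM. The 7 markers of blood, endothelial, stromal and muscle cells summed to between 6.92 and 10 CPM in the control libraries. The range was 9.70 to 10.9 CPM at 12 h, 12.2 to 16.0 at 24 h, 14.6 to 17.9 at 48 h and 16.7 to 18.1 at 72 h, nearly all of it PECAM1 and COL1A1. PTPRC, CD3E, COL1A2, MYH11 and DES each had a mean of at most 0.184 CPM in any group. Their part in the results was not tested. The mean mitochondrial share of counts was 10.9% in the control, 9.41% and 12.4% after 12 and 24 h, and 12.5% and 15.04% after 48 and 72 h. The part of this shift in the results was not tested. The libraries held between 15611961 and 25856953 counts, and 16522 genes passed the filter on low counts, all 9 desmosome genes among them. DSG3 passed only through its EGF libraries.

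DSG2 and DSG3 lie side by side on chromosome 18 and have promoters of different composition. RefSeq promoters, 250 bases before to 50 after the start site on GRCh38.p14, were found for 7 of the 9 genes, with 2 entries each for JUP and DSC2 and none for PKP2 and PKP3. Those of DSG2 and DSG3 are shown for the contrast between an abundant gene and one with no count in the control, and that of DSP because it is the link to keratin. Each is written 5′ to 3′ along the gene. Capitals mark CACCTG or its reverse complement CAGGTG, the E-box letters that SNAI1 and ZEB1 are known to bind.
DSG2 (chr18:31497927-31498226, + strand): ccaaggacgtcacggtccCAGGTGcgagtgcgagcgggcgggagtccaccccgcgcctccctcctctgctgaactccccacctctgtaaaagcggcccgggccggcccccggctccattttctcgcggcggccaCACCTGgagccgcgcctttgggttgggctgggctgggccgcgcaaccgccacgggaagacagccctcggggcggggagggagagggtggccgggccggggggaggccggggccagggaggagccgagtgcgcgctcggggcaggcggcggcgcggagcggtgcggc
DSG3 (chr18:31447491-31447790, + strand): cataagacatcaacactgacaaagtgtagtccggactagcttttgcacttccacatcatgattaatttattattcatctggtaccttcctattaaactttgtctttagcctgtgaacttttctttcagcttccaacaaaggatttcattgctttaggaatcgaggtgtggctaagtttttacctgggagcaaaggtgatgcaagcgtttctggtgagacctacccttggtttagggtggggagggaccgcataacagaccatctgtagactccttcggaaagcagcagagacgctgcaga
DSP (chr6:7541421-7541720, + strand): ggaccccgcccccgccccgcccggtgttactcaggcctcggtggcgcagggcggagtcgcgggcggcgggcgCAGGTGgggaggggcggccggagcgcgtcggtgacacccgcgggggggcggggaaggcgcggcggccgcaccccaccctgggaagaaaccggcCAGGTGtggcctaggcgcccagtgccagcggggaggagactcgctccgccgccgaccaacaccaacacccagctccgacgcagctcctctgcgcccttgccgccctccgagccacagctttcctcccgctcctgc

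The windows of DSG2 and DSP are rich in G and C, with 76.7% and 77.0%, and each holds 2 copies of CACCTG. They start at 232 and 116 bases before the start site in DSG2, and at 178 and 85 bases before it in DSP. The window of DSG3 has a GC share of 44.0%, against a median of 58.7% over 35116 promoters, and 19.4% of promoters have as little or less. It holds no CACCTG on either strand. Of the 9 windows of these genes, 4 hold CACCTG, beside 20.6% of all promoters of that length. The letters GGGCGG, searched on both strands, are in 6 of the 9 windows and in 45.0% of all promoters. None of the 9 holds TGANTCA, AACCNGTT or TATAAA, which 7.71%, 1.73% and 11.5% of all promoters hold. A match of letters is a description of the window and no sign that a factor binds there.

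Within 12 h of EGF, the transcripts of all 9 genes were higher than in the control, with no overlap between the 4 EGF and the 4 control libraries for any of them. The share of all genes tested with no such overlap was not counted. The median log2 fold change over the 9 was 1.20, beside -0.054 over all genes tested. In edgeR's quasi-likelihood test, 9 of 9 were called higher at an adjusted p under 0.05, and 32.9% of all genes were called higher and 36.5% lower. At 24 h, 9 of 9 were again called higher, beside 29.2% higher and 29.6% lower among all genes, and the median of the 9 was 0.75. At 48 h, 4 were called higher and 1 lower, beside 24.0% and 21.8% of all genes, with a median of 0.07. At 72 h, 3 were called higher and 1 lower, beside 30.6% and 31.0%, with a median of 0.20. Nothing is read from these counts, since the levels were known when the genes were chosen. In bulk RNA, a change in the number of cells of one state and a change in RNA per cell cannot be told apart.

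**Figure D1:**
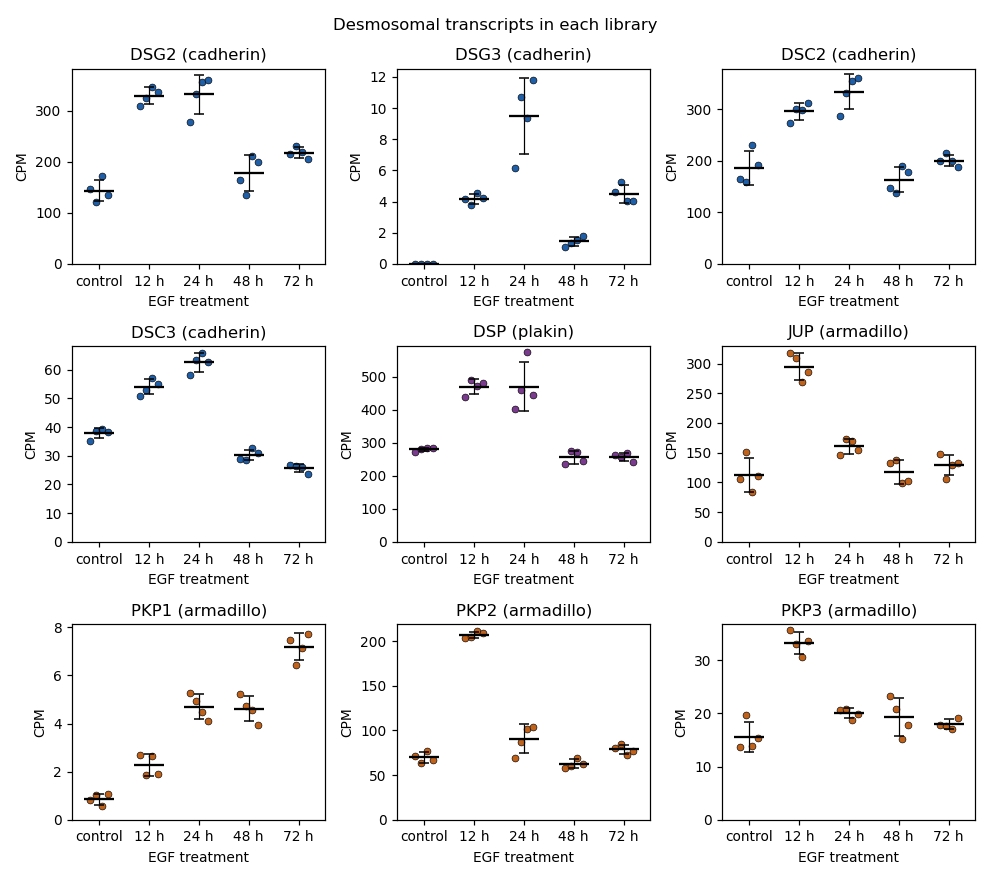
CPM of each of the 9 genes (y axis, linear from 0) in the 5 groups (x axis, control and hours of EGF); points are libraries, thick bars the mean and thin bars the SD of 4 libraries. Every gene stands above the control at 12 h, the cadherins and DSP stay high at 24 h, and PKP1 is highest at 72 h.

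DSG2, the desmoglein of nearly all epithelia, had 146, 122, 172 and 134 CPM in the 4 control libraries. It had 309, 325, 346 and 337 CPM at 12 h and 277, 333, 356 and 360 CPM at 24 h. Every library of these times was above the highest control. The log2 fold change between the groups was 1.20 (SE 0.117) at 12 h and 1.21 (SE 0.117) at 24 h, which is 2.30-fold and 2.31-fold. At 48 h it had 164, 135, 212 and 200 CPM, of which 2 libraries lay within the control range, and the log2 fold change was 0.31 (SE 0.116). That difference did not pass the threshold without control replicate 1, 2 or 4 or without the 48 h replicate 3 or 4, with values between 0.21 and 0.32. Nor did it with limma on the deposited normalized values (0.26), no filter beyond 1 count (0.31), only the 8 libraries compared (0.30) or a test against 1.5-fold. At 72 h the libraries were at 215, 231, 219 and 205 CPM, again all above the controls, with a log2 fold change of 0.60 (SE 0.116). DSG2 lies on chromosome 18 at 31498043-31549008 (GENCODE 29, GRCh38, + strand), and an antisense gene, DSG2-AS1, overlaps 2.763% of its exon bases. DSG2-AS1 had 0 counts in all 20 libraries.

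DSG3, the pemphigus vulgaris antigen of squamous epithelia, was not seen in control cells. Its counts were 0 in each of the 4 control libraries, where 3 counts per library, the limit that a count of 0 allows, would be a mean of 0.137 CPM. At 12 h it had 82, 69, 82 and 88 counts, or 4.14, 3.76, 4.53 and 4.21 CPM. At 24 h the libraries reached 6.18, 10.7, 9.36 and 11.8 CPM. They were at 1.11, 1.37, 1.52 and 1.77 CPM at 48 h and at 4.59, 5.23, 4.02 and 4.02 CPM at 72 h. DSG3 thus appeared in every EGF library, and its 24 h libraries were all above those of the other times. Against the limit of 3 counts per control library, the 12 h mean was at least 30.3-fold higher and the 24 h mean at least 69.3-fold higher. The bounds for 48 and 72 h were 10.5-fold and 32.5-fold. Between times it differed by a log2 fold change of 1.19 (SE 0.171) from 12 to 24 h, -2.70 (SE 0.190) from 24 to 48 h and 1.62 (SE 0.197) from 48 to 72 h. Among the EGF groups, DSG2 and DSC2 had their lowest means at 48 h as well. DSG3 made up only 3.08 ± 0.526% of the summed DSG2 and DSG3 transcripts per exon length at 24 h (SD, n = 4), and DSG2 the rest.

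DSC2, the desmocollin that goes with DSG2 in simple epithelia, had 164, 159, 231 and 192 CPM in the control. It had 274, 300, 299 and 312 CPM at 12 h and 287, 332, 356 and 361 CPM at 24 h, all above the controls. The log2 fold changes were 0.67 (SE 0.107) and 0.84 (SE 0.107). At 48 h the libraries stood at 148, 138, 191 and 178 CPM and at 72 h at 199, 215, 199 and 188 CPM, with log2 fold changes of -0.19 (SE 0.107) and 0.10 (SE 0.107). The ranges of both late groups overlapped with that of the control. With limma on the deposited normalized values, the value at 48 h was -0.44 and was called lower. From 24 to 48 h alone, DSC2 was lower by a log2 fold change of -1.03 (SE 0.108), with no overlap between the libraries.

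DSC3, a desmocollin of the basal layers of stratified epithelia, was the one of the 9 genes that was called higher at both early and lower at both late times. Control libraries were at 35.3, 38.6, 39.2 and 38.2 CPM. At 12 h it had 51.0, 53.0, 57.1 and 55.1 CPM and at 24 h 58.2, 63.3, 66.0 and 62.7 CPM. All 8 of these libraries were above every control, with log2 fold changes of 0.51 (SE 0.0658) and 0.72 (SE 0.0658). At 48 h the values were 29.0, 28.6, 32.6 and 30.8 CPM, and at 72 h 26.8, 26.5, 26.1 and 23.8 CPM. These 8 libraries were below every control, with log2 fold changes of -0.32 (SE 0.0667) and -0.55 (SE 0.0676). Per exon length, DSC3 held 26.7 ± 2.90% of the summed DSC2 and DSC3 transcripts in the control and 18.6 ± 0.594% at 72 h. These shares did not overlap. Those at 12, 24 and 48 h, between 23.3 and 26.8%, lay within the control range of 23.1 to 30.0%.

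DSP, the plakin that ties the plaque to keratin filaments, had control values close to each other, 273, 280, 283 and 284 CPM. It had 438, 489, 471 and 480 CPM at 12 h and 402, 458, 574 and 445 CPM at 24 h. The log2 fold change was 0.75 (SE 0.0807) at both times, or 1.68-fold. At 48 h it was at 234, 274, 271 and 244 CPM and at 72 h at 262, 256, 270 and 240 CPM, with log2 fold changes of -0.13 (SE 0.0804) and -0.12 (SE 0.0805). All 4 libraries of 72 h and 3 of 48 h were under the lowest control, although the size of the difference was small and was not called at either time. Scaled by library size alone, its value was -0.20 for 72 h and was called.

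JUP, or plakoglobin, binds the tails of both desmosomal and classical cadherins. Its control libraries were at 105, 151, 83.0 and 110 CPM. It had 317, 309, 269 and 285 CPM at 12 h, a log2 fold change of 1.39 (SE 0.144) or 2.63-fold. By 24 h it was down to 146, 173, 170 and 154 CPM, where 3 libraries were above all controls and the log2 fold change was 0.52 (SE 0.143). At 48 h it stood at 132, 138, 98.3 and 102 CPM and at 72 h at 148, 106, 130 and 132 CPM, inside the control range. The log2 fold changes were then 0.07 (SE 0.143) and 0.20 (SE 0.143). The one at 72 h was 0.38 and called once control replicate 2, the highest control, was left out.

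PKP2, the plakophilin of simple epithelia and heart, was high at 12 h above all. Control libraries had 71.2, 63.3, 77.0 and 67.4 CPM, and those of 12 h had 203, 205, 211 and 209 CPM, a log2 fold change of 1.57 (SE 0.0967) or 2.97-fold. At 24 h it was back to 69.2, 87.0, 102 and 104 CPM, of which 3 libraries exceeded all controls, with a log2 fold change of 0.38 (SE 0.0960). The values at 48 h, 58.0, 60.7, 69.5 and 62.9 CPM, and at 72 h, 80.5, 85.2, 72.8 and 77.0 CPM, overlapped with the controls. Their log2 fold changes were -0.15 (SE 0.0962) and 0.18 (SE 0.0961).

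PKP3, a plakophilin found in most epithelia, had 13.6, 19.7, 13.9 and 15.3 CPM in the control and 35.6, 33.1, 30.6 and 33.7 CPM at 12 h. That was a log2 fold change of 1.09 (SE 0.114). At 24 h it had 20.7, 20.9, 18.8 and 19.9 CPM, with 3 libraries above all controls and a log2 fold change of 0.36 (SE 0.116), which was 0.22 and not called when only library sizes were used for scaling. At 48 h it had 23.3, 20.9, 15.2 and 17.9 CPM and at 72 h 17.9, 17.7, 17.0 and 19.2 CPM. The log2 fold change of 0.30 (SE 0.115) at 48 h was called but was not called in 8 alternatives, with values between 0.20 and 0.30. Among these were the fits without control replicate 1, 3 or 4 or the 48 h replicate 1 or 2, with values between 0.20 and 0.29. At 72 h it was 0.20 (SE 0.116) and not called, and 0.33 and called without control replicate 2.

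PKP1, the plakophilin of the spinous layers of the skin, was near the limit of detection in control cells, with 16, 24, 13 and 22 counts or 0.804, 1.01, 0.555 and 1.06 CPM. It had 2.68, 1.85, 2.65 and 1.91 CPM at 12 h, 5.29, 4.92, 4.49 and 4.10 CPM at 24 h, 5.21, 4.74, 4.56 and 3.94 CPM at 48 h, and 7.48, 6.43, 7.15 and 7.73 CPM at 72 h. No EGF library of any time overlapped with the controls, and unlike the other 8 genes its highest values were at 72 h. The log2 fold changes were 1.40 (SE 0.193), 2.45 (SE 0.181), 2.42 (SE 0.179) and 3.07 (SE 0.176), the last of which is 8.37-fold. Of the summed PKP1, PKP2 and PKP3 transcripts per exon length, PKP1 made up 0.978 ± 0.276% in the control and 6.79 ± 0.662% at 72 h (SD, n = 4). Within this sum, PKP2 held the largest share at every time, from 60.4 ± 5.79% at 48 h to 76.3 ± 1.36% at 12 h. PKP4 is not part of the sum. Its mean was 13.5 CPM per kb of exon in the control and 16.9, 15.3, 11.9 and 12.3 at 12, 24, 48 and 72 h. In the same order, PKP2 had 9.90, 29.4, 12.9, 8.91 and 11.2.

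**Figure D2:**
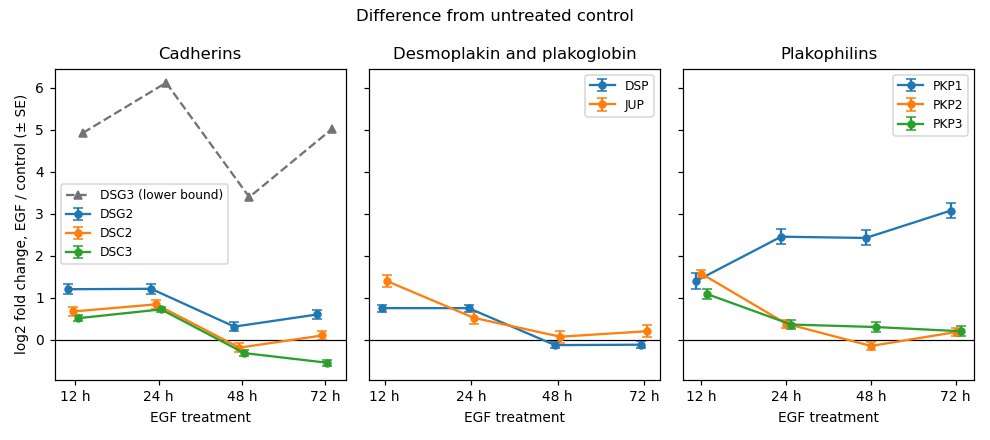
log2 fold change against the control (y axis, ± SE from the edgeR fit of 20 libraries) against hours of EGF (x axis) for cadherins, DSP and JUP, and plakophilins; DSG3 is drawn as a lower bound against 3 counts per control library. At 24 h, DSG2, DSC2, DSC3 and DSP are at or above their 12 h values (DSC3 by 0.21), whereas JUP, PKP2 and PKP3 are at 0.52, 0.38 and 0.36.

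The genes differed in how long they stayed above the control. Between 12 and 24 h, DSG3, DSC3 and PKP1 were called higher and PKP2, PKP3 and JUP lower, while 27.9% of all genes were called higher and 25.9% lower. PKP2 differed by a log2 fold change of -1.19 (SE 0.0958), JUP by -0.88 (SE 0.142) and PKP3 by -0.73 (SE 0.113), with no overlap between the 24 h and the 12 h libraries. DSG2, with 0.01 (SE 0.114), and DSP, with 0.00 (SE 0.0801), had the same level at both times within their spread. Between 24 and 48 h the cadherins and DSP were lower, and JUP and PKP2 were lower again. The step was -0.45 (SE 0.143) for JUP and -0.53 (SE 0.0963) for PKP2, with 4 and 3 libraries below all of those at 24 h. DSG2 differed by -0.90 (SE 0.116), DSC3 by -1.05 (SE 0.0666) and DSP by -0.88 (SE 0.0809), and none of their libraries overlapped. In all, 7 of the 9 genes were called lower and 0 higher at this step, beside 24.3% lower and 25.9% higher among all genes, and the 2 that were not called are PKP1 and PKP3. Between 48 and 72 h, DSG3, DSC2, PKP1 and PKP2 were called higher and DSC3 lower, with 17.9% of all genes called in each direction. These last differences were small outside DSG3 and PKP1, at 0.29 (SE 0.107) for DSC2 and 0.33 (SE 0.0964) for PKP2.

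Levels of different genes can be set beside each other only per length, here as CPM per kb of merged exons. In the control, DSP came first with 27.8 ± 0.487 CPM per kb, followed by DSG2 with 23.2 ± 3.48, JUP with 22.7 ± 5.69 and DSC2 with 14.9 ± 2.65 (SD, n = 4). Each of these 4 overlapped with its neighbor in the order, and the merged exons of DSC2, at 12.495 kb, are the longest of the 9, which lowers its value. PKP2 (9.90 ± 0.828), DSC3 (5.36 ± 0.249), PKP3 (4.12 ± 0.742) and PKP1 (0.138 ± 0.0369) came next, and DSG3 was last at 0. Of these, only DSC3 and PKP3 overlapped. At 12 h, JUP was first with 59.7 ± 4.48 CPM per kb, overlapping with DSG2 at 53.2 ± 2.57, and DSP was next with 46.5 ± 2.20. From 24 h on, DSG2 led, with 53.5 ± 6.19 at 24 h, 28.7 ± 5.69 at 48 h and 35.1 ± 1.72 at 72 h, and at 72 h it was apart from all others. The sum over the 9 genes was 108 ± 3.50 CPM per kb in the control, 230 ± 3.67 after 12 h and 189 ± 19.2 after 24 h. It was 110 ± 3.90 by 48 h and 124 ± 3.49 by 72 h.

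**Figure D3:**
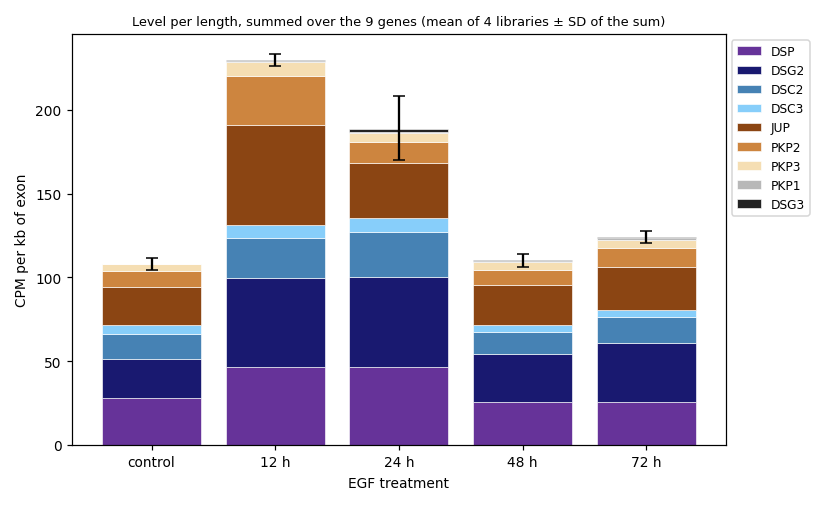
Mean CPM per kb of merged exons (y axis, linear from 0) of the 9 genes, stacked, in the control and at each time of EGF (x axis), with the SD of the sum over 4 libraries. The stack goes from 108 in the control to 230 at 12 h and is at 110 again at 48 h.

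The correlation of the genes over the 20 libraries is given as Pearson's r of log2 CPM and as a description only, since the libraries share 5 group means. PKP3 and JUP had 0.941, PKP2 and JUP 0.876, DSC3 and DSP 0.934, and DSG2 and DSC2 0.917. DSP also had 0.754 with JUP and 0.752 with PKP2, and DSG2 had 0.732 with PKP2. These were above the 0.689 of DSG2 and DSC3, so the values do not divide the genes cleanly. PKP1 was close to 0 or below with DSC2 (0.044), JUP (0.021), DSP (-0.081), PKP2 (-0.143) and DSC3 (-0.258), and closest to DSG3 (0.786). Among 13881 genes with a mean of at least 1 CPM, the patterns most like that of DSG2 were those of RTKN2 (0.989), RALGPS2 (0.988) and OSBPL3 (0.985). For DSG3 they were SERPINB4 (0.993), CYB5R2 (0.990) and SERPINB3 (0.989). SERPINB3 and SERPINB4 are the squamous cell carcinoma antigens. For DSC2 they were IPO7, EIF2A and BDP1 (0.986, 0.977 and 0.975), for DSC3 SFT2D2, CTDSPL and SUPT16H (0.960, 0.950 and 0.948), and for DSP LPAR3, TRIP12 and ATP11A (0.970, 0.970 and 0.968). JUP was most like RNF126, ARHGDIA and PPP1R13L (0.986, 0.984 and 0.984), PKP2 most like NOLC1, MAK16 and MFHAS1 (0.987, 0.986 and 0.985) and PKP3 most like IMPDH1, FLII and BCAR1 (0.976, 0.968 and 0.966). PKP1 was most like TGM5, NT5DC4 and AC008514.1 (0.978, 0.977 and 0.977), of which TGM5 is a transglutaminase of the epidermis. No other gene of the 9 was among the 3 most alike of any of them.

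All desmosomal cadherins of the genome lie in one cluster on chromosome 18, from DSC3 at 30990008 to the end of DSG2 at 31549008 (GENCODE 29, GRCh38), 559.0 kb in all. Within it and 500 kb to either side, 37 genes are annotated, of which 12 code for proteins and 9 of those passed the filter. DSG1, DSG4 and DSC1, the cadherins of the cluster outside the 9 genes, stayed near 0. DSG1 had at most 0.0741 CPM on average in any group. DSG4, a desmoglein of the hair that lies next to DSG3, had 0 counts in the control and means of 0.170, 0.660, 0.0261 and 0.111 CPM at 12, 24, 48 and 72 h. It did not pass the filter and was not tested. Like DSG3, it had its highest mean at 24 h and its lowest EGF mean at 48 h. DSC1 had 0.566 ± 0.190 CPM in the control and fell to 0.0372 ± 0.0481 CPM at 12 h (edgeR adjusted p = 1.69e-05), the opposite direction to its neighbors DSC2 and DSC3. No fold is given, because the 12 h libraries held 3 counts or fewer. DSC1 passed the filter only through groups where it is higher, which limits this call. TTR, the gene just beyond DSG2, had 0 counts in all 20 libraries.

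Further out, B4GALT6, a galactosyltransferase that makes lactosylceramide, was also high at 12 and 24 h. It had 7.66 ± 1.63 CPM in the control, 17.5 ± 1.94 and 22.2 ± 1.28 CPM after 12 and 24 h, and 10.2 ± 2.61 and 13.2 ± 1.20 CPM after 48 and 72 h (SD, n = 4). Its log2 fold changes were 1.19 (SE 0.152, edgeR adjusted p = 2.59e-07), 1.53 (SE 0.151, 6.47e-09), 0.42 (SE 0.155, 0.0315) and 0.78 (SE 0.154, 1.32e-04), with all EGF libraries above all controls except at 48 h, where 3 were above and 1 below. RNF125, a ubiquitin ligase 1028.4 kb from the lower end of DSC3, rose from 17.5 ± 1.59 CPM to 32.6 ± 1.15 at 12 h (edgeR adjusted p = 5.50e-09) and 33.2 ± 1.92 at 24 h (5.65e-09), was not called at 48 h (20.2 ± 3.10 CPM, 0.0723) and was higher again at 72 h (26.9 ± 1.08 CPM, 2.98e-06). Between them, TRAPPC8, a subunit of a vesicle tethering complex, was not called at any time against the control, with log2 fold changes of 0.01, 0.21, -0.17 and -0.12 (SE 0.0980 to 0.0986) and 53.5 ± 8.17 CPM in the control. The low SLC25A52 (0.737 ± 0.0928 CPM) was called higher at 12, 24 and 72 h, the most at 72 h with 1.57 ± 0.169 CPM (log2 fold change 1.08, SE 0.253, edgeR adjusted p = 7.48e-04).

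**Figure D4:**
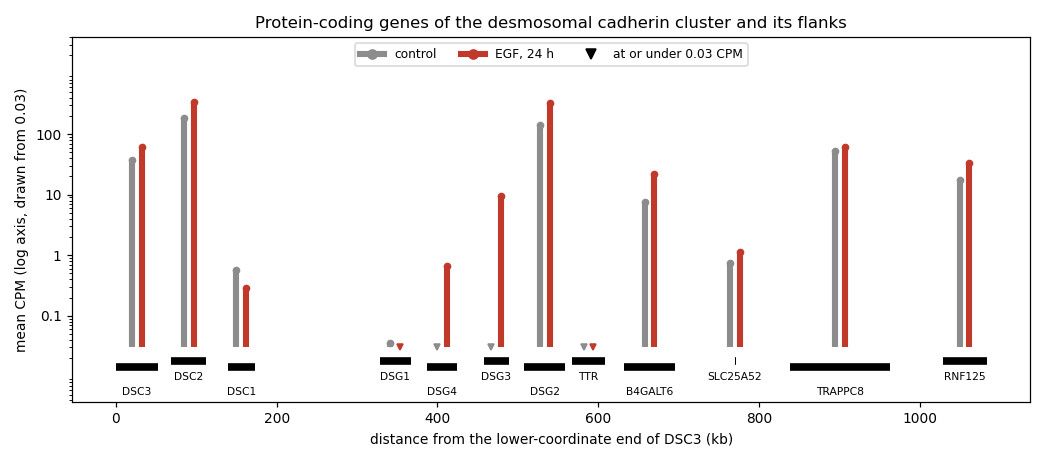
Mean CPM (y axis, log scale drawn from 0.03) in the control and at 24 h of EGF for the 12 protein-coding genes in and around the cadherin cluster, placed by distance in kb from the lower-coordinate end of DSC3 (x axis); black bars show the genes' extents. DSG3 and DSG4 go from no count in the control to means of 9.51 and 0.660 CPM, and neither DSC1 nor TRAPPC8 is called at this time.

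The partners of the 9 genes were followed as lists of 43 genes, 37 of which passed the filter. These were not part of the rule, but the lists were made with earlier results of these data known. Among the 37, 30 rose and 4 fell at 12 h, 25 rose and 3 fell at 24 h, 14 rose and 7 fell at 48 h, and 20 rose and 8 fell at 72 h. Over all genes tested, 32.9% rose and 36.5% fell at 12 h, 29.2% and 29.6% at 24 h, 24.0% and 21.8% at 48 h, and 30.6% and 31.0% at 72 h. The median log2 fold changes were 1.02, 0.52, 0.14 and 0.47, beside -0.054, -0.007, 0.010 and -0.009 over all genes. The adjusted p given for them is that of edgeR (Benjamini-Hochberg) over 16522 genes. Unless said otherwise, differences are against the control.

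Keratins are the filaments that desmosomes anchor. All 9 keratins on the list rose at 12 and at 24 h, beside 32.9% and 29.2% of all genes. Keratins outside the list were not followed. KRT18, the main simple keratin of these cells, went from 788 ± 84.4 CPM to 5136 ± 150 at 12 h (log2 fold change 2.70, SE 0.0869, adjusted p = 6.36e-18), and its partner KRT8 from 146 ± 26.7 to 729 ± 24.5 CPM (2.32, SE 0.117, adjusted p = 4.02e-14). The basal keratin KRT5 reached 1296 ± 48.8 CPM from 198 ± 20.7 (2.71, SE 0.0766, adjusted p = 7.67e-19). KRT6A, an injury-induced keratin, had only 2.58 ± 0.559 CPM in the control and 1118 ± 39.7 at 12 h, a log2 fold change of 8.77 (SE 0.143, adjusted p = 2.51e-23). Reads from KRT6A and its near-identical copies, and from KRT14, KRT16 and KRT17, may not be fully separable, so single values among them are uncertain. At 48 h only KRT6A, KRT14 and KRT16 were still called, with log2 fold changes of 4.78, 0.84 and 1.42, beside 24.0% of all genes called higher. At 72 h 7 of the 9 were called higher, all but KRT5 and KRT19, beside 30.6% of all genes. KRT17, for example, was at 88.0 ± 4.23 CPM at 48 h and at 289 ± 36.3 CPM at 72 h.

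Of 4 other plakins, 3 passed the filter. PLEC, which like DSP binds intermediate filaments, rose from 23.6 ± 7.32 CPM to 137 ± 4.91 at 12 h (log2 fold change 2.54, SE 0.179, adjusted p = 1.60e-10) and was higher at all 4 times. DST was likewise higher at all 4 times, with log2 fold changes of 0.75, 0.95, 0.69 and 0.86. EVPL rose at 12 h only (0.46, SE 0.152, adjusted p = 0.00949), and PPL had 0 counts in all libraries. Of 7 other desmosomal proteins, 5 passed the filter, and 4 rose and 1 fell at 12 h, the latter being DSC1 with its few counts. Of all genes, 32.9% rose and 36.5% fell at that time. CDSN, which is secreted into the junctions of the outer skin, rose at every time from 0.354 ± 0.0485 CPM to as much as 3.87 ± 0.840 at 72 h (3.44, SE 0.214, adjusted p = 1.36e-12). It had 7 to 9 counts in each control library and passed the filter only through EGF libraries. PERP, a membrane protein of desmosomes, rose from 472 ± 27.9 to 681 ± 11.1 CPM at 12 h (0.53, SE 0.0716, adjusted p = 5.55e-07) and was not called at 48 h. PKP4, an armadillo relative, rose slightly at 12 and 24 h (0.32 and 0.18) and fell slightly at 48 and 72 h (-0.18 and -0.13). KAZN had the same turn, with 0.58 at 12 h and -0.30 and -0.28 at 48 and 72 h, while its -0.23 at 24 h was not called.

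The adherens junction holds the other large pool of armadillo proteins, of which 3 were followed. At 12 and 24 h 1 of them rose, near the 32.9% and 29.2% of all genes called higher. At 48 and 72 h 2 fell, beside 21.8% and 31.0% of all genes. CTNNB1, beta-catenin and the closest relative of JUP, rose from 122 ± 7.58 CPM to 209 ± 7.08 at 12 h (log2 fold change 0.78, SE 0.0610, adjusted p = 6.86e-11) and 151 ± 8.56 at 24 h, and fell to 94.7 ± 2.31 at 48 h (-0.36, SE 0.0612, adjusted p = 3.55e-05) and 95.2 ± 5.38 at 72 h. CTNND1 was not called at any time, with log2 fold changes of -0.15, 0.12, -0.21 and -0.19. ARVCF was at 6.30 ± 2.00 CPM and was lower at 48 h (-0.72, SE 0.197, adjusted p = 0.00438) and 72 h (-0.90, SE 0.202, adjusted p = 5.04e-04). CDH1, the E-cadherin of adherens junctions, rose at 12 h (0.51, SE 0.0794, adjusted p = 4.76e-06) and was lower at 24, 48 and 72 h (-0.32, -0.46 and -0.49), at 24 h opposite to DSG2, DSC2 and DSC3.

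Of 8 transcription factors known from epithelia, 5 rose and 3 fell at 12 h, 4 rose and 3 fell at 24 h, and 3 rose and 3 fell at both 48 and 72 h. Of all genes, 32.9% rose and 36.5% fell at 12 h, 29.2% and 29.6% at 24 h, and 24.0% and 21.8% at 48 h. The counts at 72 h are near the 30.6% and 31.0% of all genes called in each direction. GRHL3 fell from 18.7 ± 2.55 CPM to 9.84 ± 1.44 at 12 h and 3.72 ± 0.233 at 48 h (log2 fold change -2.33, SE 0.123, adjusted p = 1.98e-13), and GRHL2 fell at all 4 times, most at 12 h (-0.93, SE 0.0986, adjusted p = 1.24e-08). KLF5 rose from 135 ± 25.5 to 450 ± 12.2 CPM at 12 h (1.73, SE 0.101, adjusted p = 3.21e-13) and KLF4 from 8.68 ± 0.657 to 23.1 ± 1.20 CPM (1.41, SE 0.0829, adjusted p = 3.78e-13), and both were higher at all 4 times. TP63, a regulator of stratified epithelia, was low throughout. It fell from 0.980 ± 0.337 CPM in the control to 0.344 ± 0.145 at 12 h (-1.52, SE 0.318, adjusted p = 1.81e-04) and rose to 1.89 ± 0.351 CPM at 72 h (0.93, SE 0.257, adjusted p = 0.00311). OVOL1 rose at 12 h (0.70, SE 0.132, adjusted p = 5.43e-05) and fell at the 3 later times, by -0.68, -0.71 and -0.65. OVOL2 and GRHL1 were called at 12 and 24 h only, with log2 fold changes of at most 0.38. Of the repressors known from EMT, SNAI1 rose at all times, from 1.48 ± 0.521 CPM to 6.07 ± 0.410 at 12 h (2.03, SE 0.214, adjusted p = 1.09e-08) and 5.84 ± 1.20 at 48 h (1.97, SE 0.213, adjusted p = 6.25e-08). ZEB1 was called higher at every time but had at most 0.627 ± 0.0773 CPM, at 72 h, from 0.0358 ± 0.0476 CPM in the control. It had 3 counts in the 4 control libraries together and passed the filter only through EGF libraries, which limits these calls. SNAI2 had 0 counts, and ZEB2 and TWIST1 did not pass the filter.

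Enzymes and kinases known to act on desmosomes, by cleaving or phosphorylating them, were followed in one list with EGFR. Of its 7 genes, 6, 4, 3 and 4 rose in the order of times, beside 32.9%, 29.2%, 24.0% and 30.6% of all genes, and 1 fell, at 72 h. The sheddase ADAM9 rose from 62.8 ± 8.18 to 220 ± 10.8 CPM at 12 h (log2 fold change 1.81, SE 0.0932, adjusted p = 3.16e-14) and was still higher at 72 h with 141 ± 6.87 CPM. ADAM15 (0.65, SE 0.140, adjusted p = 2.88e-04) and ADAM17 (0.29, SE 0.0867, adjusted p = 0.00545) rose at 12 h only, and ADAM10 was called only at 72 h, where it fell (-0.29, SE 0.0765, adjusted p = 0.00196). PRKCA, the protein kinase C isoform known to loosen desmosomal adhesion, rose at all 4 times, at 12 h from 12.3 ± 1.55 to 25.0 ± 1.87 CPM (1.02, SE 0.0856, adjusted p = 2.31e-10). SRC rose at 12, 24 and 72 h. EGFR itself, the receptor of the ligand used, rose from 3474 ± 103 to 11752 ± 323 CPM at 12 h (1.76, SE 0.0680, adjusted p = 1.72e-16) and was still at 5867 ± 240 CPM at 72 h.

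**Figure D5:**
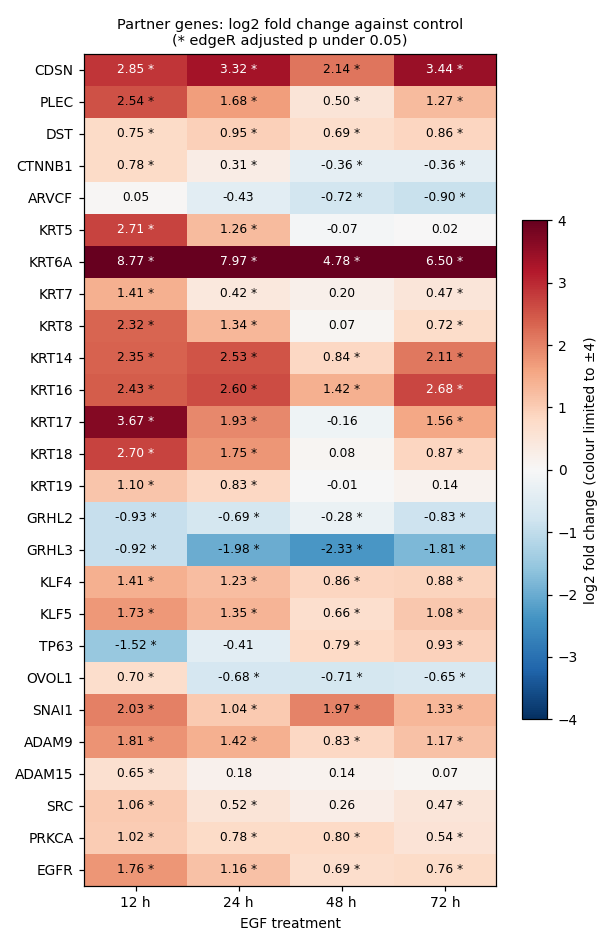
log2 fold change against the control (color, limited to 4 in either direction, with the value printed) for the 26 partner genes named by the rule (rows) at the 4 times (columns); an asterisk marks an edgeR adjusted p under 0.05. All 9 keratins listed are higher at 12 and 24 h, most are not called at 48 h, and GRHL2 and GRHL3 are lower throughout.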

How the data were processed

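The 9 desmosome genes and all gene lists were chosen with earlier results of these data known. MDA-MB-468 libraries (Lexogen Corall mRNA, Illumina NS500, single-end) were mapped and counted by a core facility, and hg38 is the build in the submitters' processing notes. The aligner, the counter, its strand setting and the annotation are not given in the sources used here. The authors deposited a raw estimated count for every gene and library, as a whole number, and these counts were used here. Beside it they deposited a normalized value made in DESeq2, a score on the scale of counts, used only for 1 alternative. The authors' fold changes and p-values, held in the same tables, were not used.

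Counts were fitted in edgeR 4.0.16 (R 4.3.3) with filterByExpr, TMM normalization, a mean for each of the 5 groups over all 20 libraries and the robust quasi-likelihood test, with p adjusted by Benjamini-Hochberg over 16522 genes. The procedure was tested on simulated data. Called means an adjusted p under 0.05. CPM are counts scaled to the TMM-adjusted library size, and log2 fold changes use a prior count of 0.125. A fold against 4 libraries with 0 counts is a bound against 3 counts per library. Removal of duplicate reads is not given in the sources used here. Replicate pairs of the same group differed by at least 3.539 times the sampling variance per gene, so none was counted as a duplicate library.

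Partner genes were named when called and beyond a fold change of 1.5 or 0.667 at any time, with a mean of at least 1 CPM in any group, and all coding neighbors of the cluster were named. Other partners given with values were chosen after these were seen. Exon lengths and positions are from GENCODE 29, in which 58036 of the deposited Ensembl IDs were found. Alternatives were 3 other scalings (library size only, upper quartiles, DESeq2 size factors), the DESeq2 1.42.0 Wald test, limma 3.58.1 on log2 of the deposited normalized values, other filters on low counts, only the 8 libraries compared, a replicate block, glmTreat against 1.5-fold, each library left out in turn, and a larger prior count (2). Protein sequences were not analysed here.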

Additional observations from a re-analysis of the deposited data

Results flagged for a closer look

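DSC3 and DSP were noted because all 4 libraries of an early time were above every control and all 4 of a late time below every control. For DSC3, the log2 ratio of mean CPM to the control was 0.52 at 12 h and 0.73 at 24 h, and -0.32 at 48 h and -0.55 at 72 h. The late minus the early value was -0.84 (48 against 12 h), -1.07 (72 against 12 h), -1.05 (48 against 24 h) and -1.28 (72 against 24 h). For DSP the ratio was 0.75 at both early times and -0.12 at 72 h, with a difference of -0.87 from either. In the edgeR fit, each of these late times was also called lower than the early time it is set against. That order follows from the way these genes were noted, so the calls add no support. The differences are given as a description with no p value, since the levels were in view when the genes were chosen.

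For partner genes, opposite calls against the control were tested directly between the times with edgeR's quasi-likelihood test and Benjamini-Hochberg adjustment. CTNNB1 was lower at 48 than at 12 h by a log2 fold change of -1.14 (adjusted p = 1.51e-13) and lower at 72 than at 12 h by -1.13 (adjusted p = 2.34e-13). It was lower than at 24 h by -0.67 at 48 h (adjusted p = 5.73e-09) and by -0.66 at 72 h (adjusted p = 1.03e-08). TP63 was higher than at 12 h by 2.31 at 48 h (adjusted p = 4.02e-07) and by 2.45 at 72 h (adjusted p = 1.95e-07), at levels of at most 1.89 CPM. OVOL1 was lower than at 12 h by -1.38 at 24 h (adjusted p = 2.70e-08), -1.41 at 48 h (adjusted p = 3.81e-09) and -1.35 at 72 h (adjusted p = 1.16e-08).

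Of 199 groups of 4 libraries examined for a library far from its group by Dixon's test, 9 held one, none of them for the 9 desmosome genes. Chance alone gives about 1 in 20. KLF5 had 97.2 CPM in control replicate 1, beside 146 to 150 CPM in the other controls. CDSN had 1.96 CPM in the 12 h replicate 4, beside 2.78 to 2.83. DST had 141 CPM in the 12 h replicate 1, beside 161 to 165, and 208 CPM in the 24 h replicate 3, beside 169 to 174. KRT14 had 32.0 CPM in the 24 h replicate 1, beside 39.9 to 41.2, and KRT19 had 455 CPM in the 72 h replicate 1, beside 405 to 413. PRKCA had 27.8 CPM in the 12 h replicate 2, beside 24.0 to 24.3. Of the neighbors of the cadherin cluster, B4GALT6 had 10.1 CPM in control replicate 3, beside 6.53 to 7.11, and TRAPPC8 had 51.9 CPM in the 72 h replicate 2, beside 48.3 to 48.6.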

How the results depend on the processing

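The counts of desmosome genes called at 12 and 24 h against the control, and those between 24 and 12 h and between 48 and 24 h, stayed within 1.5 times under every alternative run. Tested against 1.5-fold, DSC2 and DSC3 were not called at 12 h, and PKP2, PKP3 and JUP were not called at 24 h. At 48 h, 4 genes were called higher, but 2 with limma on the deposited normalized values, with only the 8 libraries compared or with glmTreat, and 2 to 3 when 1 library was left out (2 without control replicate 1 or 4). The 1 called lower became 2 with limma and 0 with glmTreat. At 72 h, 3 were called higher and 3 to 5 when 1 library was left out (5 without control replicate 2), and the 1 called lower became 2 with scaling by library size only and 0 with glmTreat. Between 72 and 48 h, 4 higher and 1 lower became 2 and 0 with limma.

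Of the partner genes, 4 were lower at 12 h, but 2 when 10 counts were required in every library, where fewer genes are tested. At 24 h, 3 were lower, 6 with scaling by library size only, 1 with glmTreat, and 3 to 5 when 1 library was left out (5 without control replicate 1). At 48 h, 14 higher became 9 with glmTreat, and 7 lower became 4 with limma and 1 with glmTreat. At 72 h, 8 lower became 3 with limma and 2 with glmTreat. A test against 1.5-fold asks for more than a test against 0. Otherwise the cause was not tested. Scaling by library size only moved the median log2 fold change of all genes to -0.3373 at 12 h and -0.1497 at 24 h, and upper quartiles moved it to -0.2159 at 12 h, so values under these scalings are relative to that shift. Of the member log2 fold changes against the control, those of JUP at 48 h alone changed sign, to -0.052 without control replicate 3 and -0.016 without the 48 h replicate 2, within a range of -0.052 to 0.24 over the libraries left out.

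Whether the replicate numbers mark a shared culture is not settled. Over 40 same-numbered pairs the deviations from the group means had a median correlation of 0.009 (from -0.239 to 0.348), beside -0.004 over other-numbered pairs. Of the same-numbered pairs 5 had a correlation over 0.1, and 8 of 20 libraries were closest to their own number. With a replicate block, 9 members were called higher at 12 and at 24 h, 4 at 48 h and 3 at 72 h as without it, and between 72 and 48 h 5 rather than 4. Depth limits DSG3, PKP1, DSC1, DSG4, CDSN and ZEB1, which had few or no counts in at least 1 group.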
